A study of Mus musculus with 24 samples.

Results

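A set of 9 genes that mark or specify macrophages was followed across tumour-associated macrophages and marrow-derived macrophage cultures of mice: the receptors Csf1r, Cx3cr1, Trem2, Adgre1, Adgre4 and Itgam, the lysosomal glycoprotein Cd68, and the transcription factors Spi1 and Cebpb. They were chosen by gene name in the annotation of the arrays, where Adgre1 and Adgre4 carry the older names Emr1 and Emr4. The 9 genes are measured by 17 probes, out of 23594 gene symbols and 55681 probes.

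Total RNA was measured on 24 Agilent 1-colour arrays, 4 for each of 6 groups, all from male C57BL/6 mice that were 10 weeks old. Macrophages of tumours (TAM, for tumour-associated macrophages) came from post-sepsis mice, 14 days after induction, and from naive mice, and were taken from a Percoll gradient by 1 hour of adhesion. M1 and M2 cultures were grown from naive marrow with 20% L929 supernatant and 10% serum for 7 days. At day 3, M1 cultures received interferon-gamma at 50 ng/mL with lipopolysaccharide at 10 ng/mL, and M2 cultures received IL-10 at 20 ng/mL, per the labels. M0 cultures, grown the same way without polarization, came from post-sepsis marrow and from naive marrow. L929 supernatant is a source of CSF1, the ligand of the Csf1r receptor, so every marrow culture had been grown with that ligand and TAM had not been cultured with it beyond isolation. Adhesion does not remove other adherent cells, and the labels do not name the tumour line. TAM samples were the 4 chosen by RNA absorbance ratios from 12 per group in 3 experiments, and marrow samples the best 4 from 2 experiments with 3 samples per group each. The experiment of each sample is not stated, so the p-values measure the spread between chosen samples. TAM naive replicate 2, left out by the submitters for low RNA amount and quality, was not used, which leaves 23 arrays.

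Macrophages depend on CSF1 signalling: the tyrosine kinase receptor encoded by Csf1r carries survival and differentiation signals from CSF1 and IL-34. PU.1, encoded by Spi1, is the ETS-family factor that opens the myeloid programme and binds purine-rich sites with a GAGGAA core, and the C/EBP factors, C/EBP-beta among them, act beside it at many macrophage enhancers. Adgre1 encodes the surface antigen most used to mark mouse macrophages, Itgam encodes the CD11b chain of complement receptor 3, and Cd68 encodes a heavily glycosylated protein of late endosomes and lysosomes. Cx3cr1 is the receptor of fractalkine, and Trem2 is a lipid-sensing receptor that signals through the adaptor DAP12 (Tyrobp).

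The probes of Itgam and Cx3cr1 are shown because the results for these genes depend on what a probe reads. The first 30 bases of the 60-base probes of Itgam follow in order of signal, brightest first, with a run of alternating C and A in capitals. They lie on mm9 chr7:135261755-135261814, chr7:135260275-135260334 and chr7:135212140-135212199, all on the plus strand.
Itgam, brightest probe: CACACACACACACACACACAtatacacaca
Itgam, second probe: aagttcacaatcctgtaccactcattgtgg
Itgam, dimmest probe: tgttaaccagacaggtgccctctaccagtg

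The brightest Itgam probe thus opens on a simple repeat, with a CA run of 20 bases, and the other 2 Itgam probes do not. The first 30 bases of the overlapping Cx3cr1 probes are shown next, with the bases they share in this window in capitals. They lie on the minus strand of mm9, at chr9:119957811-119957870 and chr9:119957806-119957865.
Cx3cr1, brightest probe: cgtgcCTAGAGTGTGTCTATCCCACTTGTA
Cx3cr1, second probe: CTAGAGTGTGTCTATCCCACTTGTAattct

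These 2 probes share 55 of 60 bases, so they are nearly 1 measurement. Positions are those of the array's own annotation. The brightest probes of the other members lie on mm9 at chr17:57622868-57622927 (Adgre1), chr17:55992348-55992407 (Adgre4) and chr17:48491537-48491596 (Trem2), all on the plus strand. That of Cd68 lies on chr11:69477775-69477834, minus strand, and that of Cebpb on chr2:167515828-167515887, plus strand. The Spi1 probe is listed from chr2:90939665-90953452, a span of 13788 bases for 60 bases of probe. The brightest and the second Csf1r probe start 12064 bases apart. Exon and UTR annotation of the mm9 build was not used here.

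The promoters of Cd68 and Trem2 are shown because both genes were among the members that fell most in TAM against M0 cultures. They are RefSeq sequences of GRCm38.p6, from 250 bases before to 50 bases after the start, with GAGGAA (read as TTCCTC on the other strand), the core of PU.1 sites, in capitals.
Cd68 promoter, chr11:69666121-69666420, minus strand: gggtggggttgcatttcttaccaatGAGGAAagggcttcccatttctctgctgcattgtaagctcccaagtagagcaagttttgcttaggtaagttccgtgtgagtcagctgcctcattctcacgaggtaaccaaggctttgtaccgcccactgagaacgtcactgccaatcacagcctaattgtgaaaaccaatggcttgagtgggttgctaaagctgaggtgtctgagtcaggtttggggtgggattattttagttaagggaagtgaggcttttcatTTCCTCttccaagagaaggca
Trem2 promoter, chr17:48346151-48346450, plus strand: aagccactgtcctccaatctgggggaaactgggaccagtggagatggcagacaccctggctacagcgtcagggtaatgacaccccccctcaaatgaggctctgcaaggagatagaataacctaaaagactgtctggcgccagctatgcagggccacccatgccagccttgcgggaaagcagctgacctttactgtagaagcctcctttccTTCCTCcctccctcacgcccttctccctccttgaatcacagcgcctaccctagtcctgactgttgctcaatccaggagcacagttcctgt

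Both promoters hold GAGGAA, at -225 and 29 in Cd68 and at -40 in Trem2, counted from the start of the gene. Of 6 members found in the RefSeq promoter table, Itgam (3 matches) and Adgre4 (1 match) hold it too, and Cebpb and Cx3cr1 do not hold these letters. The motif occurs in 28.3% of 32851 promoters of 300 bases. TTGCNNAA, a C/EBP site searched on both strands, occurs in 10.8% of them and in Cd68, Trem2 and Adgre4. The matches describe letters and were not tested as binding sites.

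Levels below are log2 processed intensities minus the 75th percentile of all probes on the same array, so that 0 is a probe at that percentile. Each gene is given by its brightest probe, and levels of different genes cannot be set against each other on arrays. Over the 23 arrays, 56.9% to 69.7% of probes were well above background, the 75th percentile of intensity ran from 218 to 608, and no spot was saturated. The deposited value table was not used for levels. In 22 of its 24 columns the ranks were closest to another sample's scanner file, in 19 of them one of another group. Under the table's column labels Csf1r overlapped between TAM and M0 cultures, at 12.33 to 17.87 in TAM naive against 12.32 to 18.05 in M0 naive on the table's own log2 scale, whereas under the labels of the scanner files it did not overlap. All directions given here rest on the labels of the scanner files.

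The TAM arrays carried macrophage markers at low levels beside strong signals of other cells. All 12 macrophage markers examined were well above background on every array. Leaving out Itgam, a choice made after its probe had been seen, the other 11 summed to 16.7 to 59.7 multiples of the 75th percentile in TAM post-sepsis, 34.0 to 84.1 in TAM naive and 1025 to 2578 in the marrow groups. The Itgam probe alone stood at 22.7 to 202 in TAM post-sepsis and 160 to 371 in TAM naive. The 6 melanocyte markers (Tyr, Dct, Pmel, Mlana, Tyrp1 and Mitf) summed to 1857 to 2329 in TAM post-sepsis and 1821 to 2418 in TAM naive, against 6.74 to 26.2 in the marrow groups. The 6 fibroblast markers summed to 235 to 1189 in TAM post-sepsis and 217 to 933 in TAM naive, against 0.706 to 3.43 in marrow. The part of these cells in the levels of TAM was not tested. In RNA of a mixed sample, fewer macrophages and less RNA per macrophage cannot be told apart.

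**Figure D1:**
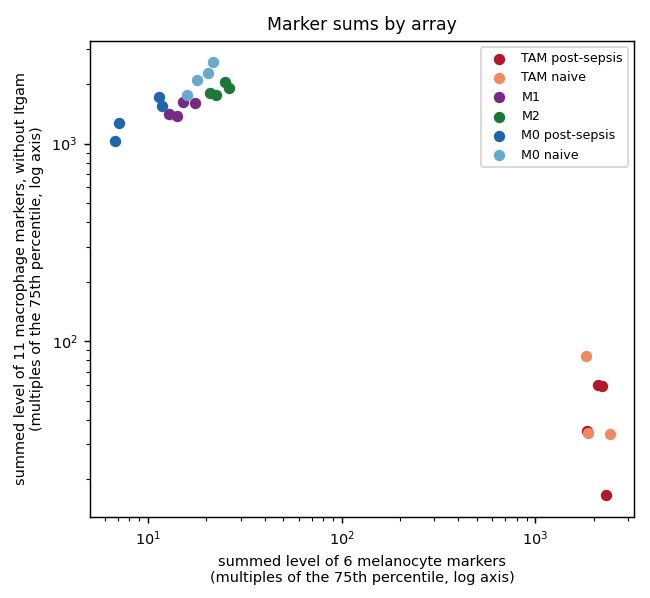
Summed level of 11 macrophage markers without Itgam (vertical, log axis) against the summed level of 6 melanocyte markers (horizontal, log axis), both in multiples of the array's 75th percentile. Each point is 1 of 23 arrays, coloured by group. The 7 TAM arrays lie at the lower right, with macrophage sums of 16.7 to 84.1, and the 16 marrow arrays at the upper left, with 1025 or more.

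Among the growth factor, chemokine and lipid receptors, Csf1r was high in every marrow group. It stood at 3.56, 1.65, 3.36 and 3.76 in TAM post-sepsis and at 2.20, 3.38 and 2.43 in TAM naive. M1 cultures had 8.77, 8.50, 8.52 and 8.79, M2 cultures 9.0, 8.90, 8.71 and 9.0, M0 post-sepsis 7.62, 8.14, 7.38 and 7.95, and M0 naive 9.30, 9.08, 8.74 and 9.07. The order of means was M0 naive, M2, M1, M0 post-sepsis, TAM post-sepsis and TAM naive. M0 naive overlapped with M2 and M2 with M1, M0 post-sepsis lay below all of these, and the TAM groups overlapped with each other below every marrow array.

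Cx3cr1 had another order. Its level was -1.77, -2.80, -2.34 and -2.46 in TAM post-sepsis and -1.54, -1.31 and -2.15 in TAM naive. M1 cultures were at -3.95, -3.72, -4.07 and -3.95, with 1 of 4 arrays above background, and M2 cultures at -4.90, -3.36, -4.18 and -4.54, with 2 of 4. M0 post-sepsis was at 0.42, 1.14, 0.67 and 0.85 and M0 naive at 2.10, 1.59, 0.71 and 1.43. The polarized cultures, not TAM, were therefore the lowest groups for the fractalkine receptor, and the M0 groups overlapped at the top.

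Trem2 ran from 0.56 to 2.51 in TAM post-sepsis (2.51, 0.56, 1.44 and 2.05) and was 0.67, 1.52 and 0.67 in TAM naive. M1 cultures had 6.63, 6.32, 6.53 and 6.55, M2 cultures 8.63, 8.66, 8.32 and 8.30, M0 post-sepsis 8.29, 8.58, 8.26 and 8.38, and M0 naive 9.28, 8.90, 8.73 and 9.01. M0 naive lay above all other groups without overlap, M2 and M0 post-sepsis overlapped, and M1 lay between these and TAM.

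Of the adhesion receptors, Adgre1 was at 0.73, -1.59, 0.22 and 0.24 in TAM post-sepsis and at -0.86, 0.02 and -0.80 in TAM naive. M1 cultures had 7.16, 6.80, 6.91 and 7.05, M2 cultures 6.32, 6.12, 6.09 and 6.40, M0 post-sepsis 5.49, 6.07, 5.12 and 5.81, and M0 naive 7.36, 6.92, 6.72 and 7.12. Post-sepsis replicate 2 was the lowest TAM array for Adgre1, as it was for Csf1r, Cd68 and Trem2. M0 naive and M1 overlapped at the top, followed by M2 and M0 post-sepsis without overlap.

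Adgre4, a relative of Adgre1 on the same chromosome, separated M0 naive from everything else. M0 naive had -0.33, -0.38, -0.69 and -0.20, all well above background, the highest levels of this probe. The level was -3.70, -5.73, -6.45 and -4.35 in TAM post-sepsis, above background in the first and last of these, and -4.82, -4.53 and -4.47 in TAM naive, above background in none. It was -6.05, -6.74, -5.81 and -6.18 in M1, above background in none, -3.98, -4.98, -4.16 and -4.26 in M2, above it in 2 of 4, and -4.68, -5.07, -5.55 and -6.12 in M0 post-sepsis, above it in none. The order among these 5 groups is therefore not informative.

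The brightest Itgam probe had the largest SD of the members' brightest probes in 5 groups, from 0.69 in M2 to 1.67 in M0 post-sepsis, the exception being TAM naive, where Cebpb had 0.997 and Itgam 0.626. It was 5.06, 7.66, 5.67 and 4.50 in TAM post-sepsis, 8.54, 7.32 and 7.66 in TAM naive, 5.75, 6.86, 7.43 and 6.70 in M1, 6.62, 6.82, 6.29 and 5.26 in M2, 7.01, 5.44, 3.19 and 6.34 in M0 post-sepsis and 4.67, 6.36, 7.70 and 6.29 in M0 naive. Every neighbour in its order of means overlapped. The second Itgam probe gave -1.18, -2.06, -1.80 and -0.75 in TAM post-sepsis and -1.05, -0.68 and -1.31 in TAM naive, below the 1.48 to 3.33 of all marrow arrays.

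Cd68 ran from 2.23 to 3.66 in TAM post-sepsis and from 2.46 to 3.42 in TAM naive. It ran from 7.61 to 7.85 in M1, 8.55 to 8.87 in M2, 8.05 to 8.77 in M0 post-sepsis and 8.23 to 8.87 in M0 naive, so that M1 was the lowest marrow group and the others overlapped. Of the transcription factors, Spi1 was above background on 1 of 4 TAM post-sepsis arrays (-5.88 to -3.96) and 2 of 3 TAM naive arrays (-3.88 to -3.45). Its level in the marrow groups lay between -0.76 and 0.67, and these groups overlapped.

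Cebpb was at 3.57, 3.66, 3.83 and 4.09 in TAM post-sepsis and at 3.84, 5.37 and 3.50 in TAM naive. M1 cultures had 7.76, 7.52, 8.04 and 7.97, M2 cultures 5.16, 5.14, 4.98 and 5.0, M0 post-sepsis 4.48, 4.98, 4.38 and 4.57, and M0 naive 5.26, 4.94, 4.40 and 4.66. M1 stood alone at the top, and each later neighbour in the order M2, M0 naive, M0 post-sepsis, TAM naive and TAM post-sepsis overlapped.

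**Figure D2:**
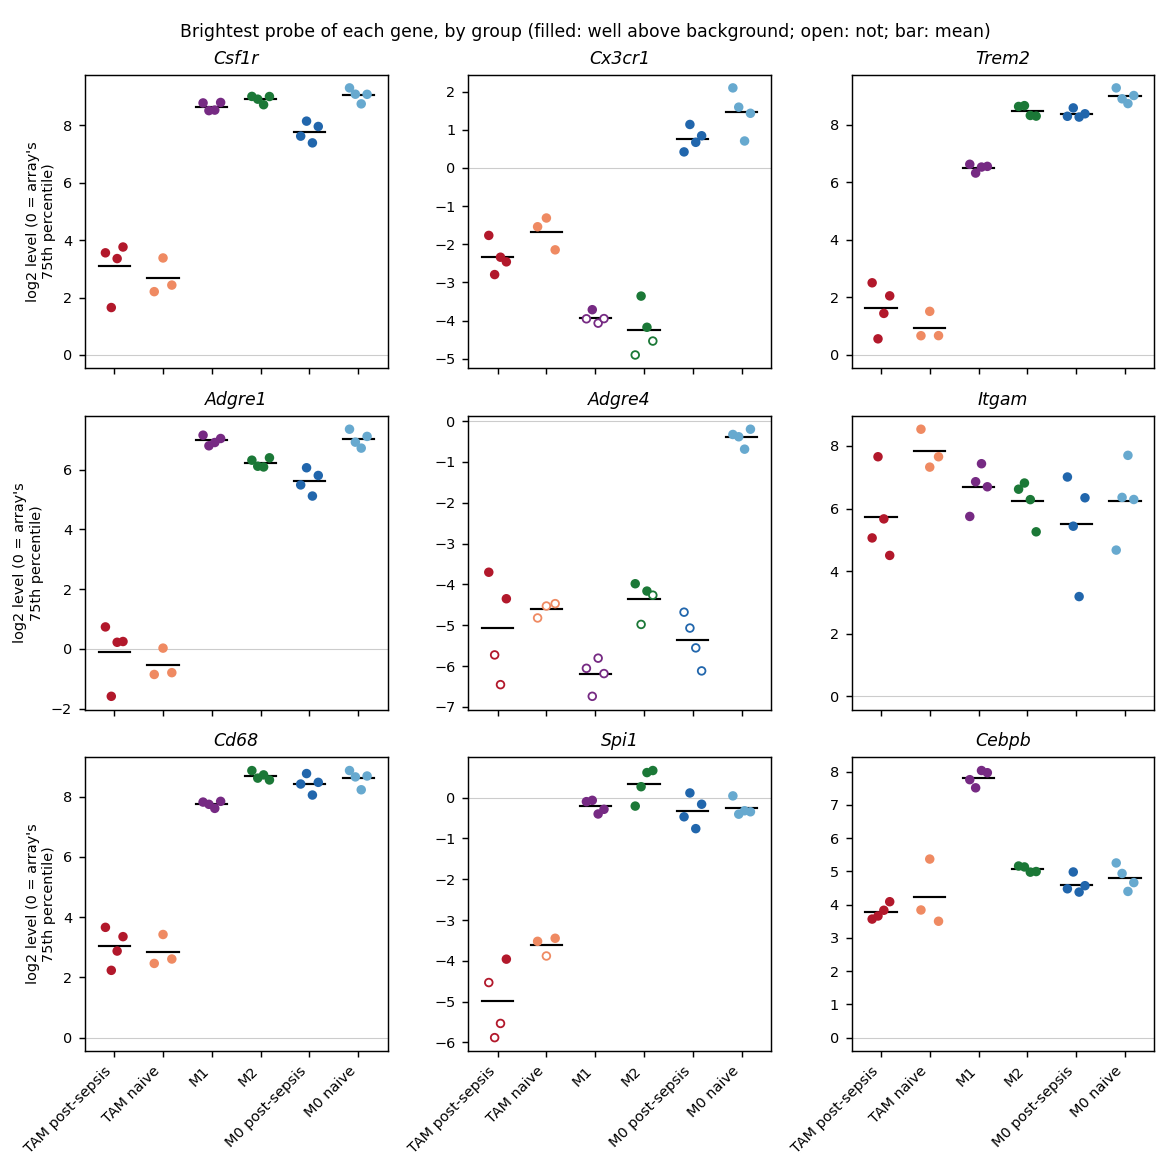
Level of the brightest probe of each of the 9 genes (vertical, log2, 0 at the array's 75th percentile) in the 6 groups (horizontal). Points are arrays, filled where the probe was well above background and open where not, and bars are group means. Csf1r, Adgre1, Cd68, Trem2 and Spi1 lie lower in both TAM groups than in all marrow arrays, Cx3cr1 is lowest in M1 and M2, Adgre4 is high in M0 naive, and Cebpb is high in M1.

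TAM were compared with M0 cultures of the same mouse background, a contrast in which tissue, isolation and culture differ together. In TAM naive against M0 naive, 7 of 9 members fell. Differences here and below are limma's, on the log2 scale, ± their standard error. Trem2 differed most, at -8.03 ± 0.32 (adjusted p = 7.32e-14 by limma, 261-fold lower), followed by Adgre1 (-7.57 ± 0.38, adjusted p = 2.64e-12, 191-fold), Csf1r (-6.38 ± 0.37, adjusted p = 2.09e-11, 83-fold) and Cd68 (-5.78 ± 0.29, adjusted p = 1.85e-12, 54.8-fold). Spi1 was at -3.36 ± 0.35 (adjusted p = 9.84e-08), above background on 2 of 3 TAM naive arrays, and Cx3cr1 at -3.13 ± 0.35 (adjusted p = 2.65e-07). Adgre4 was at least 12.8-fold lower (adjusted p = 3.32e-07), a bound because it was above background on no TAM naive array. Spi1 and Adgre4 passed the detection filter through M0 naive alone, so their p-values are not weighed. The count of 7 members includes both. Over all 30600 features 35.3% were called, 14.4% higher and 20.8% lower.

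Cebpb (-0.58 ± 0.32, adjusted p = 0.172) and Itgam (1.58 ± 0.81, adjusted p = 0.142) did not pass in that comparison. Without TAM naive replicate 3, the array with the highest Cebpb of the 3, Cebpb was at -1.14 (adjusted p = 0.00117). Each of the 7 called members was lower within all 3 slides where both groups lay on the slide, Trem2 at -7.38, -8.20 and -8.61 and Csf1r at -5.70, -6.47 and -7.09. Cebpb differed in sign between slides, at 0.43, -1.03 and -1.42.

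In TAM post-sepsis against M0 post-sepsis, 7 of 8 tested members fell, against 27% of 29872 features lower and 16.3% higher (43.3% in all). The median over all features was -0.34, so members are read against that shift. Trem2 was at -6.74 ± 0.30 (adjusted p = 2.12e-13), Adgre1 at -5.72 ± 0.35 (adjusted p = 3.68e-11, 52.6-fold), Cd68 at -5.40 ± 0.26 (adjusted p = 1.02e-12, 42.2-fold) and Csf1r at -4.69 ± 0.34 (adjusted p = 4.80e-10, 25.9-fold). Spi1 was at -4.66 ± 0.32 (adjusted p = 1.87e-10), above background on 1 of 4 TAM arrays, and Cx3cr1 at -3.11 ± 0.32 (adjusted p = 8.39e-08, 8.64-fold). Spi1 passed the detection filter through M0 post-sepsis alone, so its p-value is not weighed, although the count of 7 includes it. Cebpb, at -0.82 ± 0.29, passed narrowly (adjusted p = 0.0307). Its call was lost when TAM post-sepsis replicate 1, 2 or 3 or M0 post-sepsis replicate 2 was left out, where it stood at -0.74, -0.77, -0.83 and -0.69, with adjusted p between 0.0525 and 0.0794, and with normexp background correction (-0.70, adjusted p = 0.0526). Itgam was at 0.23 ± 0.75 (adjusted p = 0.826), and Adgre4 was not tested.

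Lists of related genes, which include the members, were followed in the same comparisons. Of 16 other macrophage identity genes, all 16 fell in both comparisons, with a median of -5.45 in TAM naive against M0 naive, where all features had -0.02, and of -4.95 in TAM post-sepsis against M0 post-sepsis. The high-affinity Fc receptor Fcgr1 (-6.45), the complement chains C1qc (-7.51) and C1qb (-7.09) and Aif1 (-5.56) were among them in the naive pair. Of 16 genes of the TREM family and DAP12 signalling, 13 fell and 1 rose in the naive pair (median -2.66) and 14 fell in the post-sepsis pair (median -3.23). Tyrobp, the adaptor of Trem2, was at -5.46 and -5.54, the lipase Lpl at -6.06 in the naive pair, and the phosphatase Inpp5d at -3.82 and -4.30.

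The integrins and their adaptors fell in 7 of 13 and rose in 1 in either pair, with Itgb2, the partner chain of Itgam, at -4.67 and -4.66 and the integrin activator Fermt3 at -5.26 and -5.46. Of 9 lysosomal membrane genes, 8 fell and 1 rose in either pair, Cd68 among the 8, with Lamp1 at -1.97 and -1.57 and the cholesterol exporter Npc1 at -2.56 and -1.67. In the list of transcription factors 12 of 26 fell and 9 rose in the naive pair, with Cebpa (-4.54), the liver X receptor Nr1h3 (-4.57), Maf (-4.28) and Pparg (-3.94) lower. In the post-sepsis pair 13 of 25 fell and 8 rose, with Maf at -3.70 and, on the higher side, Mitf at 3.72 and Bhlhe40 at 2.92. Mitf is also 1 of the 6 melanocyte markers.

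Around Csf1r, 5 of 11 genes fell and 3 rose in the naive pair, with a median of 0.77, and 5 of 12 fell and 3 rose in the post-sepsis pair, with a median of -0.28. The cytokine receptor chains Csf2rb2 (-3.79) and Csf2ra (-2.46) fell, whereas Kit, the receptor of stem cell factor (3.82), and Il34, the second ligand of Csf1r (1.63), rose, and Csf2 was at least 8.14-fold higher. Of the adhesion receptors related to Adgre1, 5 of 12 rose and 3 fell in the naive pair (median 1.05) and 6 of 11 rose and 3 fell in the post-sepsis pair (median 1.72), with Adgrg1 at 7.03 and 6.49. The number that rose in the naive pair was 1 when TAM naive replicate 1, 3 or 4 was left out. A test needs 3 arrays above background in 1 group, so a gene detected only in TAM could then not be tested. This count therefore does not show dependence on single arrays. In the fractalkine receptor list 6 of 11 fell and 2 rose in the naive pair (median -3.13), with Folr2 at -5.98 and the receptor Gpr34 at least 25.3-fold lower.

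**Figure D3:**
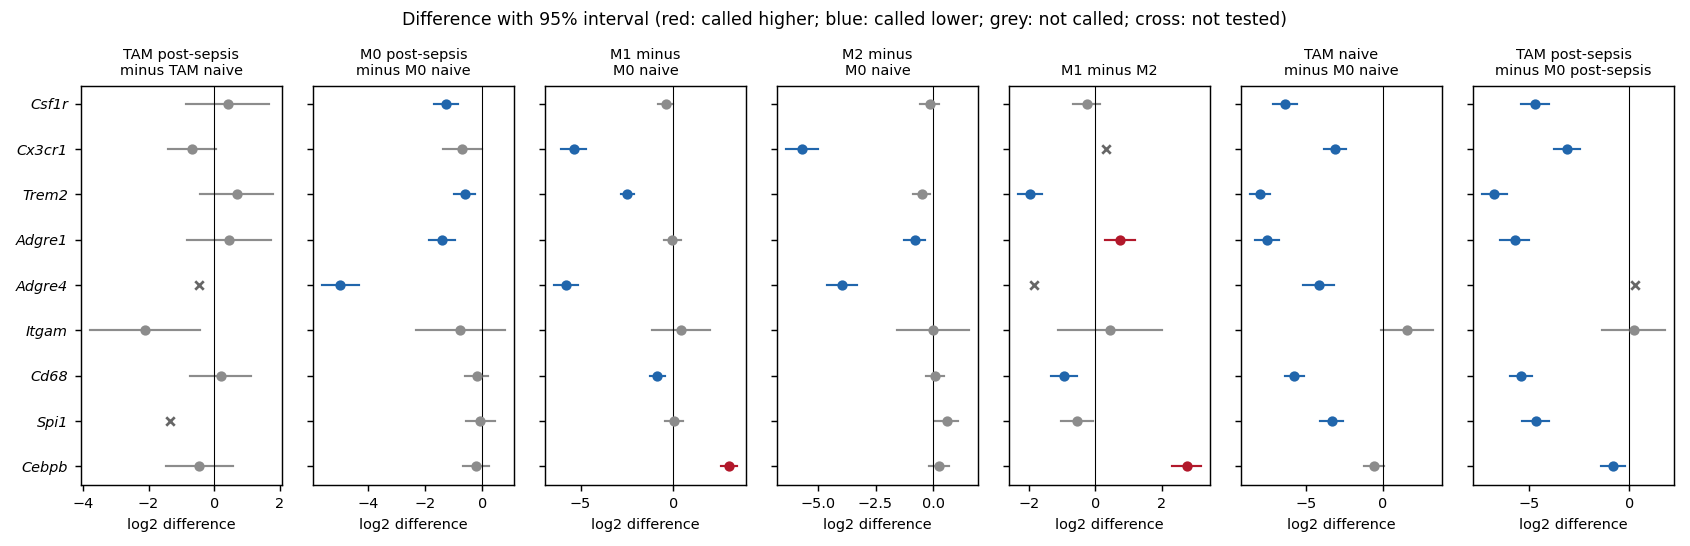
Log2 difference (horizontal, with its 95% interval, limma) of each of the 9 genes (vertical) in 7 comparisons, 1 panel each. Red and blue points passed as higher or lower, grey points did not pass, and crosses were not tested. The intervals of Itgam are the widest in all 7 panels, and Csf1r, Cx3cr1, Trem2, Adgre1, Cd68 and Spi1 are lower in both panels that set TAM against M0.

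Whether a past sepsis went with other levels in TAM was asked over 7 arrays. No member passed. Csf1r was at 0.41 ± 0.55 (adjusted p = 0.577), Adgre1 at 0.45 ± 0.55 (adjusted p = 0.544), Trem2 at 0.69 ± 0.48 (adjusted p = 0.292) and Cd68 at 0.20 ± 0.40 (adjusted p = 0.713). Cx3cr1 was at -0.67 ± 0.32 (adjusted p = 0.149), Cebpb at -0.45 ± 0.44 (adjusted p = 0.442) and Itgam at -2.12 ± 0.72 (adjusted p = 0.111). The 95% intervals ran from -0.87 to 1.69 for Csf1r and from -0.84 to 1.73 for Adgre1, so that any change within these bounds was not told from 0 here. Adgre4 and Spi1 were above background on too few arrays to be tested. Spi1 did not overlap between the groups, with a difference of -1.36, and 24% of tested features likewise did not overlap. By limma 0 of 28912 features passed (0%), 11206 had an unadjusted p under 0.05, and with the slide as a block 10244 passed (35.4%).

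With that block 1 member passed, Itgam at -1.88 (adjusted p = 0.0121), on the probe with the repeat. Post-sepsis replicate 2 decided the count: without it 9924 features passed, among them Adgre1 at 0.94 (adjusted p = 0.0469) and Itgam at -2.76 (adjusted p = 0.00154). Within slides 1, 2 and 3 Csf1r was at 0.28, 0.92 and -0.55, Adgre1 at 0.47, 1.02 and -0.73 and Trem2 at 0.76, 0.77 and -0.11, so none of these kept 1 sign. Cx3cr1 (-0.80, -0.19 and -1.25), Itgam (-2.54, -1.99 and -0.88) and Spi1 (-0.36, -2.09 and -2.36) were lower within each slide. Each slide set 1 or 2 post-sepsis arrays against 1 naive array, and the share of all features that kept 1 sign was not counted.

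With the slide as a block 25.5% of all features passed as lower and 9.9% as higher, and the counts in these lists are read against those shares. In the TREM list 7 of 16 genes passed as lower in TAM post-sepsis with that block and none as higher, with Tyrobp at -1.23, its relative Hcst at -2.16, the kinase Syk at -1.65 and Trem3 at -2.48. Around Csf1r 4 of 12 passed as lower, the receptors Csf2rb (-1.63), Csf3r (-1.36), Flt3 (-1.17) and Csf2rb2 (-1.35). Of 25 transcription factors 5 passed as lower and 1 as higher, with Cebpe (-2.48), Gfi1 (-3.40), Spib (-2.84) and Irf8 (-1.0) lower and Id3 (1.30) higher, a count of factors no larger than the shares of all features. In the fractalkine receptor list Vsig4 (1.80) and Lyve1 (1.11), receptors of resident macrophages, passed as higher and Siglech (-0.86) as lower. Markers of other leukocytes moved in the same direction as the lower genes: the B cell sum was 0.973 to 5.58 in TAM post-sepsis against 9.47 to 46.1 in TAM naive, the T cell sum 7.74 to 16.1 against 15.2 to 31.1, and the neutrophil sum 4.47 to 68.5 against 45.7 to 372. Their part in these changes was not tested. Without post-sepsis replicate 2 and without that block, 3 genes of the TREM list, 2 around Csf1r and 2 transcription factors passed as lower, and 6 of the other macrophage identity genes as higher. With the block and all 7 arrays, 2 of these 16 identity genes passed as higher and 3 as lower. Without the block none of them passed over the 7 arrays.

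In cultures grown from marrow, 4 of 9 members fell in M0 post-sepsis relative to M0 naive, and none rose. Adgre4 was at least 12.2-fold lower (adjusted p = 6.82e-08), above background on 0 of 4 post-sepsis and 4 of 4 naive arrays. It passed the detection filter through M0 naive alone, so this is a difference in detection and its p-value is not weighed. Adgre1 was at -1.41 ± 0.21 (adjusted p = 0.000326, 2.66-fold lower) and Csf1r at -1.27 ± 0.19 (adjusted p = 0.000349, 2.42-fold lower). The groups did not overlap for these 3 genes or for Trem2, as for 12% of all features tested. Over all 29642 features 10.7% were called, 5.41% higher and 5.33% lower. Trem2 was at -0.60 ± 0.17 (adjusted p = 0.0344). Its call was lost without M0 post-sepsis replicates 1, 3 or 4 (-0.57, -0.56 and -0.60) or M0 naive replicates 1, 2 or 4 (-0.50, -0.63 and -0.59), with adjusted p between 0.0575 and 0.0917, and with no filter on dim probes (adjusted p = 0.0904).

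Cx3cr1 (-0.69 ± 0.32, adjusted p = 0.243), Itgam (-0.76 ± 0.74, adjusted p = 0.712), Cd68 (-0.18 ± 0.19, adjusted p = 0.744), Spi1 (-0.06 ± 0.23, adjusted p = 0.949) and Cebpb (-0.21 ± 0.21, adjusted p = 0.721) did not pass. Within slides 2 and 3, which held both groups, Csf1r was at -1.41 and -1.25, Adgre1 at -1.62 and -1.42, Adgre4 at -4.67 and -5.27 and Trem2 at -0.59 and -0.80. Markers of other cells moved beside the members: the 8 neutrophil markers summed to 39.3 to 78.5 in M0 post-sepsis, against 190 to 228 in M0 naive, and 5 of them fell. The melanocyte sum was 6.74 to 11.7 in M0 post-sepsis against 15.8 to 21.7 in M0 naive. Of 4 melanocyte markers tested, however, 1 fell and 0 rose, with a median difference of 0.26, so most did not share the lower sum. The part of these neutrophil and melanocyte markers in the members' levels was not tested.

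In the list of other macrophage identity genes 10 of 16 fell and 2 rose in M0 post-sepsis, with a median of -0.88 against 0.04 over all features. Aif1 was at -2.09, the oxidase subunit Cybb at -1.97, the uptake receptor Mertk at -1.91 and Fcgr1 at -1.53. In the TREM list 6 of 16 fell and 1 rose, with Hcst at -0.99, Tyrobp at -0.92, Gpnmb at -0.75 and Trem3 at 1.91. The number that fell was 3 without M0 post-sepsis replicate 3 or without M0 naive replicate 1, 2 or 4. Around Csf1r 4 of 10 fell and 1 rose, with Csf2rb2 at -1.76, Csf2rb at -1.42 and Kit at 1.83.

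Among transcription factors 9 of 25 fell and 1 rose, with Spic, a relative of PU.1 (-3.25), Id3 (-2.63) and Nr1h3 (-2.17) lower and Cebpe (1.09) higher. A further receptor of the Adgre group, Adgre5, was at -2.58, so that 3 of 7 adhesion receptors fell, all of them Adgre genes, and 1 rose (Adgrg6, 1.19). In the fractalkine receptor list Folr2 (-1.87) fell and P2ry12 (1.57) and P2ry13 (1.29) rose. Of the integrins Itgax (1.71) rose and Itgal (-1.14) fell, and none of the 9 lysosomal genes passed.

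M1 and M2 cultures were each set against the same 4 M0 naive arrays, which these comparisons share with the one above. In M1 cultures 4 of 9 members fell and 1 rose, against 14.3% and 12.5% of 29510 features (26.8% in all). Cebpb rose by 3.01 ± 0.21 (adjusted p = 2.17e-08, 8.04-fold). Trem2 was at -2.47 ± 0.17 (adjusted p = 2.18e-08, 5.56-fold lower) and Cx3cr1 at -5.38 ± 0.32 (adjusted p = 4.17e-09), a size that is uncertain because 1 of 4 M1 arrays was above background. Adgre4 was at least 13.8-fold lower (adjusted p = 1.05e-09), above background on no M1 array. Cx3cr1 and Adgre4 passed the detection filter through M0 naive alone, so their p-values are not weighed. The count of 4 members that fell includes both. Cd68 was at -0.85 ± 0.19 (adjusted p = 0.0024).

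Csf1r (-0.40 ± 0.19, adjusted p = 0.165), Adgre1 (-0.05 ± 0.21, adjusted p = 0.900), Itgam (0.43 ± 0.74, adjusted p = 0.748) and Spi1 (0.05 ± 0.23, adjusted p = 0.920) did not pass in M1. The call of Cd68 was not shared by its second probe (-0.46, adjusted p = 0.470). The other members called kept their calls without any single array. The neutrophil sum was 38.2 to 46.3 in M1, against 190 to 228 in M0 naive, with 6 of 8 markers lower and 2 higher. The dendritic cell sum was 4.84 to 6.35 in M1 against 2.72 to 3.19 in M0 naive, with 2 of 4 tested markers higher and 1 lower. The part of the neutrophil and dendritic cell markers was not tested.

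In M1 cultures 12 of 25 transcription factors fell and 4 rose (median -0.54 against -0.12 over all features), with Pparg (-5.28) and Egr2 (-4.19) lower beside the rise of Cebpb. In the fractalkine receptor list 8 of 10 fell and 1 rose (median -2.81): Gpr34 was at least 27.2-fold lower, Folr2 was at -3.02 and P2ry12 was at least 3.60-fold lower. In the TREM list 9 of 16 fell and 2 rose, with the lipid carrier Apoe at -5.67, Lpl at -4.59 and Treml1 at -2.90. Around Csf1r 4 of 11 rose and 1 fell, Csf3 at least 18.1-fold higher, Csf2rb at 1.83, Csf2rb2 at 1.19 and Kit at least 3.05-fold lower.

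Of 13 integrin genes 6 rose and 2 fell in M1, with Icam1, a ligand of the Itgam receptor, at 3.18 and Itga5 at 2.34 on the higher side, and Itgax (-2.87) and Itga4 (-2.89) on the lower. Of 16 other macrophage identity genes 8 fell and 3 rose. The mannose receptor Mrc1 was at least 425-fold lower, and C1qa (-4.77), C1qc (-4.00) and C1qb (-3.61) fell. Of 7 adhesion receptors 3 fell, Adgre4, Adgrg6 (at least 4.63-fold) and Adgrg3 (-2.01), and none rose.

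In M2 cultures 3 of 9 members fell and none rose, against 6.85% of 29698 features lower and 4.32% higher (11.2% in all). Cx3cr1 was at -5.70 ± 0.32 (adjusted p = 1.05e-08) and Adgre4 at -3.95 ± 0.31 (adjusted p = 3.31e-07), each above background on 2 of 4 M2 arrays. Both passed the detection filter through M0 naive alone, so their p-values are not weighed and their sizes are uncertain. The count of 3 members includes both. Adgre1 was at -0.80 ± 0.21 (adjusted p = 0.0231). The call of Adgre1 was lost without M2 replicates 2 or 3 (-0.76 and -0.75) or M0 naive replicates 1 or 4 (-0.69 and -0.77), with adjusted p between 0.0614 and 0.0735. It was also lost with normexp (-0.71, adjusted p = 0.0662) and with no filter on dim probes (adjusted p = 0.0531), and its second probe did not pass (-0.49, adjusted p = 0.364).

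Csf1r (-0.14 ± 0.19, adjusted p = 0.725), Cd68 (0.08 ± 0.19, adjusted p = 0.852), Cebpb (0.25 ± 0.21, adjusted p = 0.523) and Itgam (-0.01 ± 0.74, adjusted p = 0.996) did not pass in M2. Trem2 (-0.50 ± 0.17, adjusted p = 0.078) and Spi1 (0.59 ± 0.23, adjusted p = 0.127) did not pass either. Trem2 passed without M0 naive replicate 3 (-0.58, adjusted p = 0.0416) and Spi1 without M2 replicate 1 (0.77, adjusted p = 0.0455). The neutrophil sum was 67.2 to 95.8 in M2, against 190 to 228 in M0 naive, with 5 of 8 markers lower and 1 higher. The dendritic cell sum was 15.5 to 19.9 in M2 against 2.72 to 3.19 in M0 naive. Of 4 dendritic cell markers tested, 1 was higher and 0 lower, with a median difference of 0.09. The part of the neutrophil and dendritic cell markers was not tested.

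In M2 cultures 9 of 26 transcription factors rose and 4 fell (median 0.26 against -0.10 over all features), with Egr2 (3.61), Batf3 (3.60) and Bhlhe40 (3.45) higher and Id3 (-2.59) lower. Around Csf1r 4 of 10 rose and 2 fell: Csf2rb (2.11), Csf2ra (1.32) and Csf1, the main ligand of the Csf1r receptor (1.67), rose, and Kit (-2.18, above background on 1 of 4 M2 arrays) fell. In the fractalkine receptor list 5 of 10 fell and none rose, among them Gpr34 (-3.95), P2ry13 (-2.19) and Folr2 (-1.41). Of 13 integrin genes 2 rose and 3 fell, with Itgax at 6.51, Itgb2 at 1.61, Itga4 at -1.71 and Itgal at -1.58.

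In the TREM list 4 of 16 fell and 1 rose in M2, with Apoe at -1.61, Inpp5d at -0.89, Trem3 at least 2.13-fold lower and the tetraspanin Cd9 at 1.54. Of other macrophage identity genes 5 of 16 fell and 1 rose. Cd14, the lipopolysaccharide co-receptor, was at -4.04, Fcgr1 at -3.58 and Aif1 at -2.25, and Mrc1 was the gene that rose (2.19).

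M1 and M2 cultures were also compared directly. Of 7 tested members 2 rose and 2 fell in M1 relative to M2, against 15.4% and 14.6% of 28697 features (30% in all). Cebpb was at 2.75 ± 0.21 (adjusted p = 4.83e-08, 6.74-fold), Adgre1 at 0.75 ± 0.21 (adjusted p = 0.013), Trem2 at -1.97 ± 0.17 (adjusted p = 2.32e-07) and Cd68 at -0.93 ± 0.19 (adjusted p = 0.00105). The second probe of Cd68 passed as well (-1.35, adjusted p = 0.0124) and that of Adgre1 did not (0.49, adjusted p = 0.274). Csf1r (-0.26 ± 0.19, adjusted p = 0.377), Itgam (0.44 ± 0.74, adjusted p = 0.722) and Spi1 (-0.55 ± 0.23, adjusted p = 0.0911) did not pass, and Spi1 passed without M2 replicate 1 (-0.73, adjusted p = 0.0237). Cx3cr1 and Adgre4 were above background on too few arrays of both groups to be tested.

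Of 25 transcription factors 14 were lower and 7 higher in M1 than in M2, with Egr2 (-7.80), Pparg (-6.22) and Batf3 (-4.73) among those lower. In the TREM list 8 of 16 fell and 2 rose, with Apoe (-4.06), Lpl (-3.94) and Spp1 (-4.08) beside Trem2. Csf1 was at -1.81, Flt3l at 1.65 and Csf2ra at -0.99. Itgax was at -9.38, Itgb7 at 3.28 and Icam1 at 3.58.

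The difference between both sepsis contrasts, TAM minus M0, was tested over the 23 arrays, with 3.46% of 31750 features higher and 1.99% lower (5.46% in all). Of 9 members limma called 2 as higher, Adgre1 and Adgre4. Adgre1 differed by 1.86 ± 0.52 (adjusted p = 0.0424), from 0.45 in TAM and -1.41 in M0. This fit shares 1 spread over all 23 arrays, although Adgre1 varied more in TAM post-sepsis (SD 1.02) than in M0 post-sepsis (SD 0.41). The standard error of Adgre1 is thus smaller than the 0.55 of its TAM contrast fitted alone. Its p-value does not carry the full spread of TAM. Its call was lost without 10 of the 15 arrays, namely M0 naive 1, 2 and 4, M0 post-sepsis 1 and 3, TAM naive 1 and 4 and TAM post-sepsis 1, 3 and 4, with values between 1.58 and 1.89 and adjusted p between 0.0599 and 0.125. With the slide as a block it was 1.70 (adjusted p = 0.0663), and its adjusted p was 0.0637 with no filter on dim probes and 0.0532 with TAM naive replicate 2 kept in. Adgre1 passed with normexp (1.80, adjusted p = 0.0182), quantile scaling (1.92, adjusted p = 0.0215) and the replicate block (1.95, adjusted p = 0.0449). Its second probe passed as well (2.42, adjusted p = 0.0161). The call of Adgre4 is not read as a difference between the contrasts. It was above background on 2 of 4 TAM post-sepsis, 0 of 3 TAM naive and 0 of 4 M0 post-sepsis arrays, its change within TAM was not tested, and the call rests on M0 naive.

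Csf1r (1.68 ± 0.51, adjusted p = 0.0567), Trem2 (1.29 ± 0.44, adjusted p = 0.0839) and Spi1 (-1.30 ± 0.47, adjusted p = 0.102) did not pass. Without TAM post-sepsis replicate 2, Csf1r stood at 2.16 (adjusted p = 0.00095) and Trem2 at 1.65 (adjusted p = 0.00647), and both passed. Csf1r passed also without M0 naive replicate 3 (1.78), TAM naive replicate 3 (2.04), M0 post-sepsis replicate 2 (1.80) or M0 post-sepsis replicate 4 (1.74), and with normexp background correction (1.82, adjusted p = 0.0352), as did Trem2 (1.33, adjusted p = 0.0487). The second Csf1r probe was at 0.17 (adjusted p = 0.761). Spi1, mostly not above background in TAM, passed without TAM post-sepsis replicate 4 (-1.64, adjusted p = 0.0315). Of 16 other macrophage identity genes 8 passed as higher and 1 as lower, with a median of 1.55 against -0.26 over all features. The number higher was 3 without TAM naive replicate 1, and 5 without TAM post-sepsis replicate 1, 3 or 4, M0 post-sepsis replicate 1 or 3, or M0 naive replicate 1 or 4. Mertk differed by 2.21, C1qc by 2.18, Aif1 by 2.14 and Fcgr1 by 1.89. Among transcription factors Id3 (3.78), Spic (3.13) and Nr1h3 (2.57) were higher and Cebpe (-3.29) lower.

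Where a gene had several probes, they mostly ranked the arrays alike. Over the 23 arrays, which share scaling and groups, the brightest probe correlated with the second at 0.995 for Adgre1, 0.982 for Cd68 and 0.994 for Cx3cr1, and the brightest Csf1r probe with the dimmest at 0.991. The second Csf1r probe stood apart, at r = 0.695. In TAM naive against M0 naive it differed by -0.85 ± 0.26 (adjusted p = 0.0135), where the other 2 Csf1r probes differed by -6.38 ± 0.37 and -6.58 ± 0.41. The second Adgre1 probe was at -7.71 and the second Cd68 probe at -6.85 in this comparison. The second Cx3cr1 probe was at least 44.8-fold lower in M1 and at least 52.2-fold lower in M2 than in M0 naive. It is nearly 1 measurement with the brightest, as given above. The dimmest Cx3cr1 probe, which overlaps neither, was at least 4.98-fold lower in M1 and at least 5.43-fold lower in M2. This probe was above background on 7 of the 23 arrays and correlated with the brightest at 0.945.

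**Figure D4:**
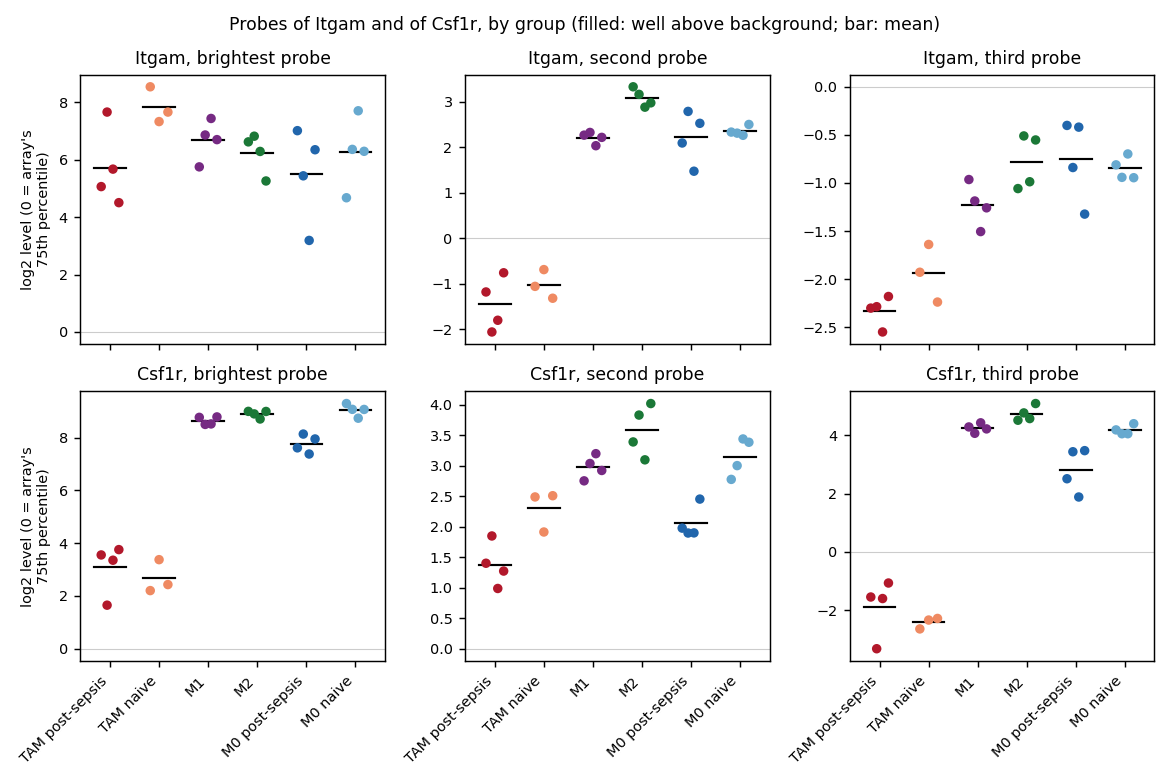
Level of each of the 3 probes of Itgam (upper panels) and of Csf1r (lower panels) in the 6 groups, on a log2 scale with 0 at the array's 75th percentile. Points are arrays and bars group means. The second and the dimmest Itgam probe are lower in TAM than in marrow and the brightest one is not, and the second Csf1r probe shows a smaller gap between TAM and marrow than the other 2.

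The Itgam probes disagreed. The brightest correlated with the second at -0.143 and with the dimmest at -0.210. The second and the dimmest were lower in TAM naive than in M0 naive, at -3.37 ± 0.29 (adjusted p = 8.48e-09) and -1.09 ± 0.23 (adjusted p = 0.000658), and likewise in TAM post-sepsis against M0 post-sepsis, at -3.67 ± 0.27 (adjusted p = 5.86e-10) and -1.58 ± 0.21 (adjusted p = 3.61e-06). The brightest passed in neither. The second Itgam probe was lower in M1 than in M2 (-0.88, adjusted p = 0.00935).

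The brightest Itgam probe followed other probes with a CA run. Apart from it, 23 probes have a run of 20 bases or more, and all were well above background on every array. Their correlation with the Itgam probe over the 23 arrays had a median of 0.976 (0.626 to 0.988), against a median of -0.160 for the other probes that were above background on all arrays. Their median difference was -2.24 in TAM post-sepsis against TAM naive, where the Itgam probe was at -2.12, and 1.99 in TAM naive against M0 naive, where it was at 1.58. In M0 post-sepsis against M0 naive the values were -0.74 and -0.76, in M1 against M0 naive 0.56 and 0.43, and in TAM post-sepsis against M0 post-sepsis 0.48 and 0.23. In M2 against M0 naive the repeat probes had a median of -0.34, between -1.51 and 0.15, and the Itgam probe was at -0.01.

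**Figure D5:**
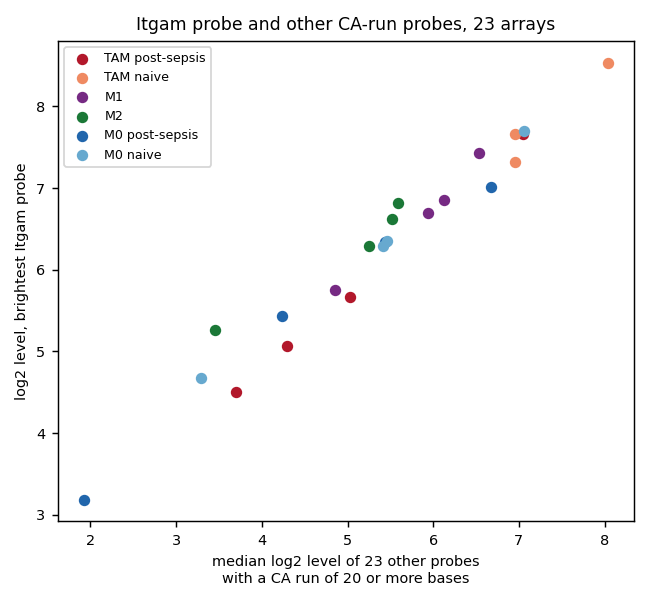
Level of the brightest Itgam probe (vertical, log2) against the median level of 23 other probes with a CA run of at least 20 bases (horizontal, log2), on 23 arrays coloured by group. The arrays lie close to 1 line whatever their group.

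Across the 23 arrays Csf1r, Adgre1, Cd68, Trem2 and Spi1 correlated with each other at 0.926 to 0.994, as these arrays hold both TAM and marrow groups. Cebpb correlated with Csf1r at 0.563 and with Adgre1 at 0.605, Adgre4 with Cx3cr1 at 0.573, and the brightest Itgam probe with no member above 0.078. The genes most like each member among 18210 genes by Pearson's r were Ctss (0.997), Myo1f (0.993) and Mpeg1 (0.993) for Csf1r, and Mpeg1 (0.997), Dnase1l1 (0.995) and Fam174a (0.992) for Adgre1. P2ry6 came first both for Cd68 (0.996) and for Trem2 (0.995), followed by Mfsd12 (0.993) and Efhd2 (0.992) for Cd68 and by Tnfsfm13 (0.993) and Dpep2 (0.990) for Trem2. For Spi1 they were Arhgap25 (0.979), Laptm5 (0.977) and Coro2a (0.975).

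Cebpb was most like Cd40 (0.977), Gbp11 (0.974) and Bst1 (0.971). Cx3cr1 was most like Limd2 (0.938), Sncaip (0.937) and Arap3 (0.935). Adgre4, above background on 8 arrays, was most like 5031434O11Rik (0.887), Bmf (0.877) and Ccr3 (0.874). For the brightest Itgam probe the closest were Pura (0.990), Snap25 (0.988) and Idua (0.988), whose probes hold CA runs of 17, 20 and 20 bases.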

How the data were processed

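Per the file headers, each scanner file holds spot intensity values of 1 array, with background subtracted and detrended by Agilent Feature Extraction 10.7.3.1, whereas the submitters' processing notes give version 12.5. Probe positions are on mm9 per the file headers. The deposited flags that mark controls, saturation and signals well above background were used too. The table of log2 values deposited by the authors served only to check labels, and its scaling is not given in the sources used here.

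Processed intensities of the 59305 spots per array that were not controls were averaged per probe, log2-transformed and centred on each array's 75th percentile. A probe needed signal well above background on 3 or more arrays of 1 compared group. A gene that met this in 1 group alone was still tested, and its p-value then sets that group against signal near background. Symbols came from RefSeq (GRCm38.p6), with the brightest probe per symbol. limma 3.58.1 in R 4.3.3 gave differences with Benjamini-Hochberg adjustment over all features kept, two-sided, at 0.05. The comparison within TAM used its 7 arrays, marrow comparisons 16, and those across TAM and marrow 23. A group above background on no array gives a bound, the other group's mean over the lowest signal well above background. The fit was tested on simulated data.

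The 9 genes and the lists were chosen with earlier results of these data known. Named genes were the members, the 3 genes most correlated with each, and up to 4 called genes per list with the smallest adjusted p. Alternatives were normexp background correction (offset 50), quantile scaling, no filter on dim probes, slide or replicate number as a block, the second probe of each gene, keeping TAM naive replicate 2, and leaving out each array. The number of arrays limits the precision.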

Additional observations from a re-analysis of the deposited data

Results flagged for a closer look

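The change after sepsis differed between TAM and M0 cultures by limma's interaction test for 1 member measured in both contrasts, Adgre1. The difference, TAM minus M0, was 1.86 on the log2 scale, with 0.45 in TAM and -1.41 in M0. The test shares 1 spread between TAM and the less variable cultures, so its p-value does not carry the full spread of TAM. The call was lost with the slide as a block (1.70, adjusted p = 0.0663), with no filter on dim probes, with TAM naive replicate 2 kept in and without 10 of the 15 arrays. It was kept with normexp, quantile scaling, the replicate block and the second Adgre1 probe. No array stood apart from its group by Dixon's test in the 45 groups of 4 values examined for the members, where chance gives about 1 in 20. With 4 values this test has little power, so it does not show that no array was discrepant. It did not flag TAM post-sepsis replicate 2, the lowest TAM array for Adgre1.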

How the results depend on the processing

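Of the members' values with 1 array left out, 522 stayed on their side of the threshold with the same direction, 24 lost and 13 gained a call, and 24 changed sign. In TAM post-sepsis against TAM naive, the count of genes called by limma ran from 0 to 9924 over the arrays left out (9924 without TAM post-sepsis replicate 2) and that of members from 0 to 2. It was 10244 genes and 1 member with the slide as a block. In the difference between the sepsis contrasts, genes called ran from 822 (without TAM naive replicate 1) to 5564 (without TAM post-sepsis replicate 2) and members, Adgre4 counted, from 1 to 4. Members called there numbered 4 with normexp, and 1 each with no filter, with the slide as a block and with TAM naive replicate 2 kept in, where 713 genes passed, while 3092 passed with quantile scaling. In M2, quantile scaling put 8 genes of the TREM list and 8 other identity genes lower, against 4 and 5. Of the genes around Csf1r, 1 fell in M2, not 2, without M2 replicate 2, 3 or 4 or M0 naive replicate 1, 2 or 4. In M0 after sepsis 3 transcription factors rose, not 1, without M0 post-sepsis replicate 3, and 2 without M0 naive replicate 1 or 3. The cause was not tested.

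Replicate numbers did not pair the samples: deviations of arrays with the same number had a median correlation of -0.049 over 55 pairs, the lowest -0.539. With the replicate block, 10306 genes and 3 members were called in the TAM sepsis comparison, where post-sepsis replicate 2 has no naive partner, and Cx3cr1 in the difference between sepsis contrasts was at -0.0618.

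Some signs changed, none of a value called in the main fit. Cd68 in TAM after sepsis was at -0.11 with quantile scaling and at -0.0122 to 0.49 leaving out arrays. Cebpb there was at -0.82 to 0.12 and the second Csf1r probe at -0.93. In M0 after sepsis Spi1 was at 0.0455 with normexp and at -0.21 to 0.0856, and Itgam at -1.29 to 0.00798. In M1, Adgre1 was at 0.0335 with normexp, 0.33 with quantile scaling and -0.15 to 0.0580, Itgam at -0.10 to 0.91 and Spi1 at -0.00423 to 0.15. In M2, Cd68 was at -0.0470 to 0.17 and Itgam at -0.54 to 0.47. In the difference between sepsis contrasts Cebpb was at -0.61 to 0.33 and Cx3cr1 at -0.23 to 0.27, and at -0.13 with the slide as a block. In TAM post-sepsis against M0 post-sepsis Itgam was at -0.54 to 0.73. The second probe gave Itgam -0.14 in M1, 0.74 in M2, -0.88 in M1 against M2, -3.37 and -3.67 in TAM naive and TAM post-sepsis against M0, and Csf1r 0.43 in M2. Of these, the Itgam values in M1 against M2 and in both comparisons of TAM with M0 were themselves called.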
